A study of Homo sapiens with 4 samples.

Results

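The NF-kB factors and feedback genes are 10 genes taken by name: the subunits NFKB1, NFKB2, RELA and RELB, the IkB inhibitors NFKBIA, NFKBIB and NFKBIE, and the ubiquitin enzymes TNFAIP3, BIRC3 and BIRC2. All 10 were found among the 57820 gene rows of the count files. The libraries were made from SY5Y, an established human neuroblastoma line with the genotype MYCN wild type, kept for 12 h either with the solvent DMSO (2 libraries) or with SGSS05-NS at 3 μM (2 libraries). The study asked which transcripts change under a covalent inhibitor of the histone H4 methyltransferase SETD8. The labels name the compound SGSS05-NS, whereas the paper that points to these libraries names SGSS05-NS3 and gives a lower dose for this line in its methods and the dose of the labels in a figure legend. The dose printed here is that of the labels, and the difference in the name is not settled here. The paper's discussion lists a compound named SGSS05-NS in the same patented series. The discussion states that compounds of the series act on other lysine and arginine methyltransferases too, at low micromolar concentrations. Both conditions share 1 cell line, and the labels carry the same extraction text for every library, controls included. The study's methods call the replicates independent biological ones.

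NF-kB is a family of dimeric transcription factors held in the cytoplasm by IkB proteins. In the canonical pathway, receptor signals activate the IkB kinase, IkB is phosphorylated, ubiquitinated and degraded, and dimers containing RELA enter the nucleus and bind kB sites. In the non-canonical pathway the kinase NIK drives processing of the NFKB2 product and frees dimers containing RELB, and the ubiquitin ligases BIRC2 and BIRC3 keep NIK low. Several genes of the pathway, NFKBIA and TNFAIP3 among them, are well known NF-kB targets and act back on the pathway as brakes. In neural crest tumours the pathway is known for its part in survival and in the response to cytokines and stress.

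Fragments on genes, counted on the strand of the gene, ranged from 21463105 to 25350204 per library. Of 11 neuroblastoma markers, 10 passed the filter on low counts and TH had between 0 and 2 fragments in every library. The summed level of these markers was 4255 and 4595 CPM, the counts-per-million scale of edgeR, with DMSO and 2650 and 2602 CPM with SGSS05-NS. Of the 10 tested, 7 were lower with SGSS05-NS at an adjusted p-value under 0.001 (edgeR), beside 8.14% of all genes tested. Of the others, ISL1 and DBH had log2 fold changes of -0.61 and -0.26, and CHGB had 0.11. The immune markers PTPRC, LYZ and CD3E had 0 or 1 fragment per library, while CD14 went from 7 and 9 to 25 and 29. Summed markers of endothelial, epithelial and Schwann cells stayed at or below 3.61 CPM in every library, and the fibroblast markers summed to 74.0 and 78.9 CPM under DMSO and 55.2 and 47.5 CPM under SGSS05-NS, nearly all of it from PDGFRB, with PRRX1 at 0 fragments. Of all fragments, unmapped ones included, the share mapped uniquely but in no exon on the counted strand was 12.4% and 12.3% for DMSO. For SGSS05-NS it was 16.1% and 15.3%. The part of these shifts in the results below was not tested. In bulk RNA, a change in the number of cells of a kind and a change in RNA per cell cannot be told apart.

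Of the 10 genes, 9 had enough counts to be tested and 5 were higher with SGSS05-NS at an adjusted p-value under 0.001 (called, below), against 6.37% of all 16468 genes tested. None was called lower, against 8.14% of all genes tested. No member had an unadjusted p under 0.05 in the lower direction either, and edgeR's likelihood ratio test, DESeq2 and limma voom each called 0 lower. Among the well counted members called higher, RELB rose most, followed by NFKBIE, NFKBIB and NFKBIA, and TNFAIP3 rose from a handful of fragments. The members' median log2 fold change was 0.88, beside 0.01 for all genes tested. With edgeR's likelihood ratio test, which the study's methods name, NFKB2 and RELA were called higher as well, which made 7, where 12.3% of all genes were called higher and 13.8% lower. TNFAIP3 passed the filter on low counts only through the treated libraries, where it is high. Under a stricter filter of 10 counts or more in all 4 libraries, 8 members were tested, 4 were called higher and 0 lower, beside 6.21% and 8.44% of 14630 genes.

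**Figure D1:**
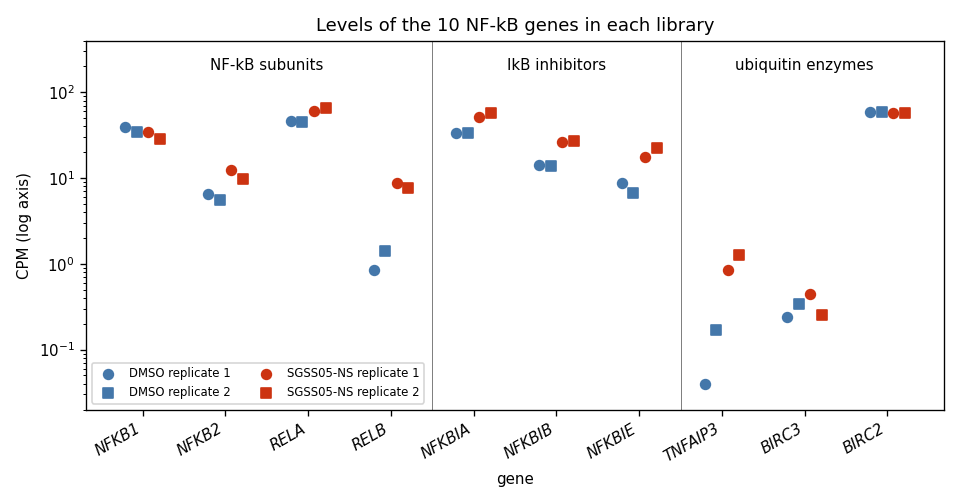
Level of each of the 10 genes (x axis) in each library, as CPM on a log axis. Circles and squares are replicates 1 and 2, blue is DMSO and red is SGSS05-NS. For RELB the SGSS05-NS libraries sit at 8.70 and 7.57 CPM and the DMSO libraries at 0.837 and 1.41 CPM, whereas for BIRC2 all 4 libraries lie between 56.7 and 59.3 CPM.

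The kB sites near the members' start sites are shown first, since 6 of these genes carry one. RefSeq promoter windows (GRCh38.p14, from 250 bases before to 50 bases after a start site, 300 bases in all) were found for 8 of the 10 genes, 14 windows in all, and not for RELB and NFKBIE. The kB consensus, a degenerate 10-base motif searched on both strands, lay in 7 of the 14 windows and in 5.91% of all 35116 windows of the table. Per gene, it lay near NFKB1, NFKB2, NFKBIA, NFKBIB, TNFAIP3 and BIRC3, 6 of 8, and near 7.09% of all 27305 genes. The members were taken by name as NF-kB genes, well known targets among them, and had more windows per gene. A higher share than that of all genes was thus partly set in advance. The windows of RELA and BIRC2 did not hold these letters. A looser form, GGGNNNNNCC, overlaps every consensus match and lay in all 14 windows, but also in 58.7% of all windows. These are matches of letters and not measured binding sites.

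For each of the 6 genes, 1 match near a start site is printed with 10 bases on either side, also where a gene had several. All were found by the same consensus, so the likeness of their capitals was set in advance. The sites run 5′ to 3′ in the direction of the gene, and capitals mark the kB consensus match.
NFKB1 at chr4:102501300-102501329 (plus strand): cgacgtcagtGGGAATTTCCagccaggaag
NFKB2 at chr10:102395674-102395703 (plus strand): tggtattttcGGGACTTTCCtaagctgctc
NFKBIA at chr14:35404811-35404840 (minus strand): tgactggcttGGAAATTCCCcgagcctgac
NFKBIB at chr19:38899931-38899960 (plus strand): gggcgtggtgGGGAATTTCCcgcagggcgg
TNFAIP3 at chr6:137867194-137867223 (plus strand): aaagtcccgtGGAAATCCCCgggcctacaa
BIRC3 at chr11:102317339-102317368 (plus strand): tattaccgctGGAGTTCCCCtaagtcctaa

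Counted from the start site, with bases before it negative, the match at NFKB1 began at position -49, that at NFKBIA at -81 and that at TNFAIP3 at -55. NFKB2 held matches in the second and the third of its 3 windows, and NFKBIB in the second of 2, where a further match overlapped the one printed in all but 1 base. A further match began at -67 in TNFAIP3 and at -199 in BIRC3.

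The bases upstream of NFKBIA and TNFAIP3 are given in full because both rose and both are classical feedback genes of the pathway. Of the other genes with a match, NFKBIB was called higher, NFKB1 and NFKB2 were not called, and BIRC3 was too rare to test. Whether the matches bear on the changes was not tested. The 250 bases before each start site read as follows, with kB consensus matches in capitals.
NFKBIA, chr14:35404750-35404999, minus strand: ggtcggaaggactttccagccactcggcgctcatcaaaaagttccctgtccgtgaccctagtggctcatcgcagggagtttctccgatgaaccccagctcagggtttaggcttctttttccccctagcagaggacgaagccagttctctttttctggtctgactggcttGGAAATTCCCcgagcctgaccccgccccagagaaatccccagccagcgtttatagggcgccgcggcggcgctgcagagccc
TNFAIP3, chr6:137867009-137867258, plus strand: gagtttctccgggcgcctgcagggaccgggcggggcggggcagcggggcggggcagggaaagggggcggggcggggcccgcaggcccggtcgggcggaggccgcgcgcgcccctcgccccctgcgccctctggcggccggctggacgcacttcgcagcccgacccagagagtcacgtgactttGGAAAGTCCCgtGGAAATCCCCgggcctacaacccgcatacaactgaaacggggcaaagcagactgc

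**Figure D2:**
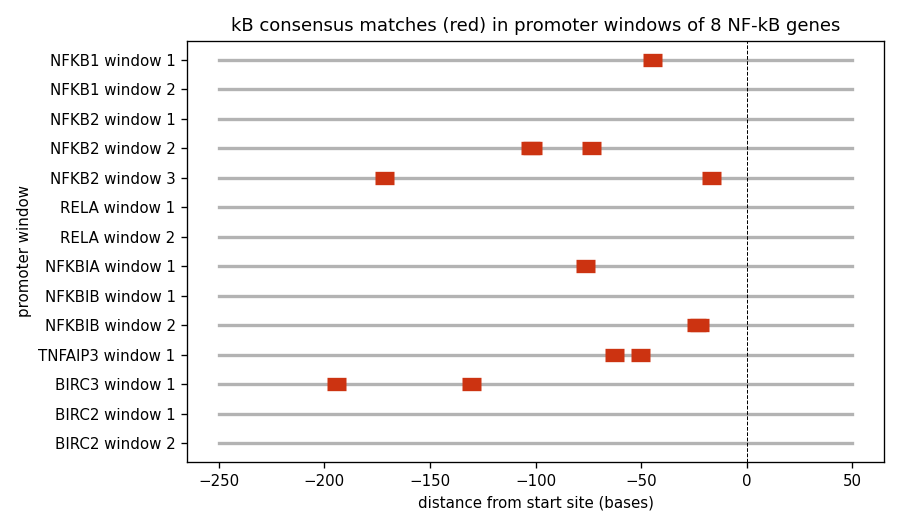
Position of kB consensus matches (red) in the 14 promoter windows (grey lines, 1 per start site) of 8 genes, as distance from the start site in bases. Matches lie in 7 windows, and the windows of RELA and BIRC2 hold none.

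Among the subunits, RELB changed most. RELB (ENSG00000104856.9, chromosome 19 of GRCh37 from 45504719 to 45541450, plus strand) encodes the subunit of the non-canonical dimers. Its fragments numbered 21 and 33 under DMSO against 193 and 178 under SGSS05-NS, that is 0.837 and 1.41 CPM against 8.70 and 7.57 CPM. Both treated libraries lay above both controls by several fold. The log2 fold change was 2.86 (standard error 0.25, Benjamini-Hochberg adjusted p = 4.4e-06 by the quasi-likelihood test of edgeR), a 7.25-fold rise. Without single libraries it ranged from 2.51 to 3.25.

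NFKB2 (ENSG00000077150.13, chromosome 10 from 104153867 to 104162281, plus strand) encodes the precursor that pairs with RELB. Its level was 6.5 and 5.48 CPM with DMSO and 12.3 and 9.78 CPM with SGSS05-NS, so the groups did not overlap. With 2 libraries per treatment this carries little weight, here and below: BIRC2 (adjusted p = 0.73, edgeR) did not overlap either. The log2 fold change of NFKB2 was 0.88 (edgeR, standard error 0.17, adjusted p = 0.0015) and missed the threshold, with a 95% interval from 0.50 to 1.26. It passed with the likelihood ratio test (adjusted p = 1e-05), with no filter on low counts and in counts without regard to strand (adjusted p = 7.9e-04, edgeR), and its adjusted p over all alternatives ranged from 4.3e-06 to 0.0068. Leaving out DMSO replicate 1 or SGSS05-NS replicate 2 also put it past the threshold, with values of 1.00 and 1.04.

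RELA (ENSG00000173039.14, chromosome 11 from 65421070 to 65430561, minus strand) encodes the main activating subunit of the canonical pathway. It had 46.1 and 44.8 CPM with DMSO and 60.5 and 64.7 CPM with SGSS05-NS. The groups did not overlap, and the log2 fold change was 0.46 (edgeR, standard error 0.09, 95% interval from 0.25 to 0.67, adjusted p = 0.0020), short of the threshold. It was past the threshold with the likelihood ratio test (adjusted p = 1.7e-04), with no filter on low counts (adjusted p = 7.7e-04, edgeR) and without SGSS05-NS replicate 1, at 0.50. NFKB1 (ENSG00000109320.7, chromosome 4 from 103422487 to 103538459, plus strand), the precursor of the usual partner of RELA, had 39.0 and 34.8 CPM with DMSO and 34.2 and 28.5 CPM with SGSS05-NS. The groups nearly touched without overlapping, and the log2 fold change of -0.23 had a 95% interval from -0.49 to 0.02 (adjusted p = 0.12, edgeR). NFKB1 is the longest of the 10 genes, spanning 116 kb, and the others span between 3.67 and 36.7 kb. Among all genes tested, those called lower had a median span of 153 kb and those called higher one of 17.6 kb, and the part of span in these results was not tested.

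All 3 IkB genes were called higher. They encode the proteins that mask the nuclear localization signal of NF-kB dimers, and NFKBIA, the fastest acting of them, is resynthesized after each wave of signalling. NFKBIA (ENSG00000100906.6, chromosome 14 from 35870285 to 35873955, minus strand) rose from 33.2 and 33.9 CPM to 51.1 and 58.1 CPM. The replicates of DMSO differed little, and the treated libraries were both above them. The log2 fold change was 0.70 (edgeR, standard error 0.10, adjusted p = 2.0e-04).

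NFKBIB (ENSG00000104825.12, chromosome 19 from 39390340 to 39399533, plus strand) had 14.2 and 13.8 CPM under DMSO and 26.5 and 27.3 CPM under SGSS05-NS, so the replicates lay close and the groups far apart. Its log2 fold change was 0.94 (edgeR, standard error 0.12, adjusted p = 5.6e-05) and stayed between 0.90 and 0.96 whichever library was left out. SIRT2 on the other strand overlaps the first 163 bases of NFKBIB, 40 of which are exonic in both genes. NFKBIE (ENSG00000146232.10, chromosome 6 from 44225903 to 44233525, minus strand) rose from 8.85 and 6.76 CPM to 17.4 and 22.4 CPM. Its change was the largest among these 3 genes, at 1.35 on the log2 scale (edgeR, standard error 0.17, adjusted p = 6.7e-05), and both treated libraries lay well above both controls. The calls of all 3 genes held under every alternative run.

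**Figure D3:**
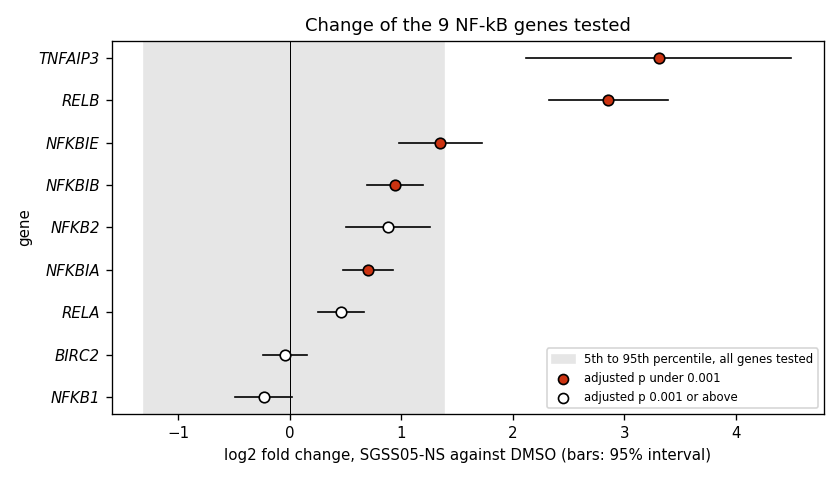
Log2 fold change of the 9 genes tested (y axis) between SGSS05-NS and DMSO (x axis), with 95% intervals as bars. Red points passed the adjusted p-value of 0.001, white points did not, and the grey band holds the middle 90% of all genes tested, from -1.31 to 1.38. RELB and TNFAIP3 lie outside the band, and the intervals of BIRC2 and NFKB1 include 0.

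Of the ubiquitin enzymes, TNFAIP3 rose, BIRC2 was not called and BIRC3 was too rare to test. TNFAIP3 (ENSG00000118503.10, chromosome 6 from 138188351 to 138204451, plus strand) encodes a ubiquitin-editing enzyme that shuts off signalling at the receptor complex. It was counted 1 and 4 times under DMSO and 19 and 30 times under SGSS05-NS, or 0.0399 and 0.171 CPM against 0.856 and 1.28 CPM. Both treated libraries were above both controls. After scaling, the counts stood in a ratio of 10.4, and counting error alone gives a 95% interval from 4.16 to 33.4. The fit of edgeR gave a log2 fold change of 3.31 with a standard error of 0.55 (adjusted p = 4.8e-04), which leans on 5 control fragments. The call was lost with DESeq2 (adjusted p = 0.0039), without DMSO replicate 1 (log2 fold change 2.60) and without SGSS05-NS replicate 2 (2.99), and the gene was not tested where at least 10 counts were required in every library.

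BIRC2 and BIRC3 lie 7.81 kb apart in the same direction on chromosome 11 and encode closely related ligases, which act with TRAF2 and TRAF3 on NIK. BIRC2 (ENSG00000110330.4, from 102217942 to 102249401) had 58.9 and 59.3 CPM with DMSO and 56.7 and 58.0 CPM with SGSS05-NS. Its log2 fold change was -0.04, with a 95% interval from -0.24 to 0.16 (adjusted p = 0.73, edgeR). The treated libraries lay just below the controls without overlap. BIRC3 (ENSG00000023445.9, from 102188215 to 102210134) was counted 6 and 8 times under DMSO and 10 and 6 times under SGSS05-NS. The groups overlapped, the scaled counts stood in a ratio of 1.21 (counting interval 0.554 to 2.68), and a change was not detectable at this depth. Fragments that map to several places are left out of these counts, so stretches shared by related genes are counted too low.

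Levels between the genes were compared per length, as fragments per kb of merged exons and scaled by library as CPM are (FPKM). In the DMSO libraries the order of the means was BIRC2 (13.1 FPKM), NFKBIA (9.88), RELA (8.33), NFKBIB (6.02), NFKBIE (3.02), NFKB1 (2.35), NFKB2 (1.07), RELB (0.375), BIRC3 (0.0389) and TNFAIP3 (0.0164). No neighbours in this order overlapped between their libraries. With SGSS05-NS the first place went to NFKBIA at 15.1 and 17.1 FPKM, ahead of BIRC2 at 12.6 and 12.8 FPKM. NFKBIB (11.4 and 11.8 FPKM) and RELA (11.1 and 11.9 FPKM) then did not differ beyond their spread, and neither did NFKB1 (2.18 and 1.82 FPKM) and NFKB2 (2.21 and 1.75 FPKM). On this length RELB moved past both of these, to 2.90 and 2.53 FPKM. Part of the order rests on the length used: per length of the longest transcript, 6 of the 10 genes kept their place in DMSO, with RELA (14.3) ahead of NFKBIA (13.1) and NFKB1 (5.24) ahead of NFKBIE (3.02). With SGSS05-NS 5 of 10 kept theirs on that length, where the mean of RELA (19.7) stood above that of NFKBIB (12.2), and that of NFKB1 (4.46) stayed above those of RELB (3.60) and NFKB2 (3.24).

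Ratios within a library do not depend on its scaling. The ratio of RELB to RELA, in FPKM, was 0.0330 and 0.0574 under DMSO and 0.262 and 0.213 under SGSS05-NS, so RELB transcripts remained the rarer. The ratio of NFKB2 to NFKB1 was 0.468 and 0.442 with DMSO and 1.01 and 0.963 with SGSS05-NS. The size of such a ratio depends on the length used, though its relative change does not. Per length of the longest transcript, the mean of NFKB2 (3.24) stayed below that of NFKB1 (4.46) with SGSS05-NS. The subunits of the non-canonical pair thus gained on those of the canonical pair in both treated libraries, although this difference between genes was not tested. Among the inhibitors, the ratio of NFKBIE to NFKBIA went from 0.351 and 0.262 to 0.449 and 0.508, and that of NFKBIA to RELA from 1.16 and 1.22 to 1.36 and 1.44. In both comparisons the groups did not overlap, which carries little weight with 2 libraries per treatment.

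Of 60 other components of the pathway, 57 were found in the files under their GENCODE identifiers and 47 were tested. At the threshold 7 were higher, 3 were lower and 37 were not called, with a median log2 fold change of 0.22, beside 6.37% higher and 8.14% lower over all genes tested. With 3 of 47 called lower, that share was close to the one of all genes and does not set the list apart. BCL3, among the 7, passed the filter on low counts only through the treated libraries, where it is high. With at least 10 counts in every library, 45 components were tested. Of these, 6 were higher and 3 lower, beside 6.21% and 8.44% of all genes. The 5 called higher with the smallest p-values were NFKBIZ, TNFRSF1A, RNF11, TBK1 and MAP3K14. NFKBIZ, an inducible nuclear IkB protein, rose from 2.63 and 1.63 CPM to 9.37 and 9.44 CPM, which is 2.13 on the log2 scale (edgeR, standard error 0.22, adjusted p = 1.5e-05). TNFRSF1A, the main receptor for TNF, rose from 4.94 and 4.75 CPM to 11.1 and 10.2 CPM (log2 fold change 1.14, adjusted p = 1.5e-04, edgeR). MAP3K14, which encodes NIK, rose from 3.31 and 3.08 CPM to 7.03 and 6.29 CPM (log2 fold change 1.06, adjusted p = 7.5e-04, edgeR). RNF11, a partner of the TNFAIP3 product, and TBK1, a kinase related to the IkB kinases, had log2 fold changes of 0.66 and 0.73. The call of MAP3K14 was lost with DESeq2, with scaling by library size only and without SGSS05-NS replicate 1, where the log2 fold change was 0.97. That of TBK1 was lost with the same scaling and without DMSO replicate 2, at 0.56.

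The other genes called higher were BCL3 and OTULIN, a deubiquitinase of linear chains. BCL3, an atypical IkB protein that binds dimers of the NFKB1 and NFKB2 products, was counted 0 and 1 times under DMSO and 10 and 13 times under SGSS05-NS, for a scaled ratio of 24.4 (counting interval 3.96 to 1004). OTULIN had a log2 fold change of 0.57 (adjusted p = 9.7e-04, edgeR). Both calls were lost with scaling by library size only and without DMSO replicate 2, where the log2 fold changes were 6.58 for BCL3 and 0.43 for OTULIN. That of BCL3 was also lost without DMSO replicate 1 (3.39), and that of OTULIN with limma voom and in counts without regard to strand. BCL3 was too rare to be tested with at least 10 counts in every library or without either SGSS05-NS library, and DESeq2 gave it no adjusted p. REL, the fifth subunit of the family, went from 10.4 and 9.97 CPM to 15.6 and 16.7 CPM and missed the threshold (log2 fold change 0.67, adjusted p = 0.0016, edgeR), which it passed with the likelihood ratio test (adjusted p = 2.4e-05) and with no filter on low counts (adjusted p = 1.6e-04).

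The genes called lower were BTRC, FBXW11 and COMMD1. BTRC and FBXW11 encode the paralogous F-box proteins that recognize phosphorylated IkB for degradation. BTRC fell from 49.2 and 45.5 CPM to 28.8 and 21.6 CPM (log2 fold change -0.91, adjusted p = 1.8e-04, edgeR). FBXW11 fell from 128 and 124 CPM to 90.8 and 84.9 CPM (log2 fold change -0.52, adjusted p = 7.9e-04, edgeR), and its call was lost with scaling by library size only and without DMSO replicate 1 (-0.51) or SGSS05-NS replicate 2 (-0.47). COMMD1, which promotes the removal of RELA from chromatin, fell from 13.9 and 12.3 CPM to 4.78 and 6.29 CPM (log2 fold change -1.24, adjusted p = 1.3e-04, edgeR). These 3 genes span 203, 145 and 259 kb.

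By role, 0 of 11 adaptors tested were called, 2 of 9 kinases were called higher, 2 of 11 ubiquitin enzymes were called lower, and 2 of 9 inhibitors were called higher and 1 lower. With 6.37% of all genes called higher and 8.14% lower, numbers this small set no role apart. The catalytic subunits of the IkB kinase were not called. CHUK had a log2 fold change of 0.14 with a 95% interval from -0.06 to 0.34, and IKBKB one of 0.12 with an interval from -0.18 to 0.42. TRAF2 and TRAF3, the partners of BIRC2 in the control of NIK, were not called either, but their 95% intervals did not include 0. The log2 fold change of TRAF2 was 0.29 (from 0.05 to 0.54) and that of TRAF3 was -0.29 (from -0.51 to -0.06). Of 4 other Rel and IkB proteins 2 were called higher, NFKBIZ and BCL3, and BCL3 was tested only through its counts in the treated libraries. Of 13 receptors and ligands, 3 could be tested, and TNF, LTA, LTB, IL1R1 and TLR4 had 0 fragments in all 4 libraries, which allows up to 3 counts or between 0.120 and 0.135 CPM per library.

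**Figure D4:**
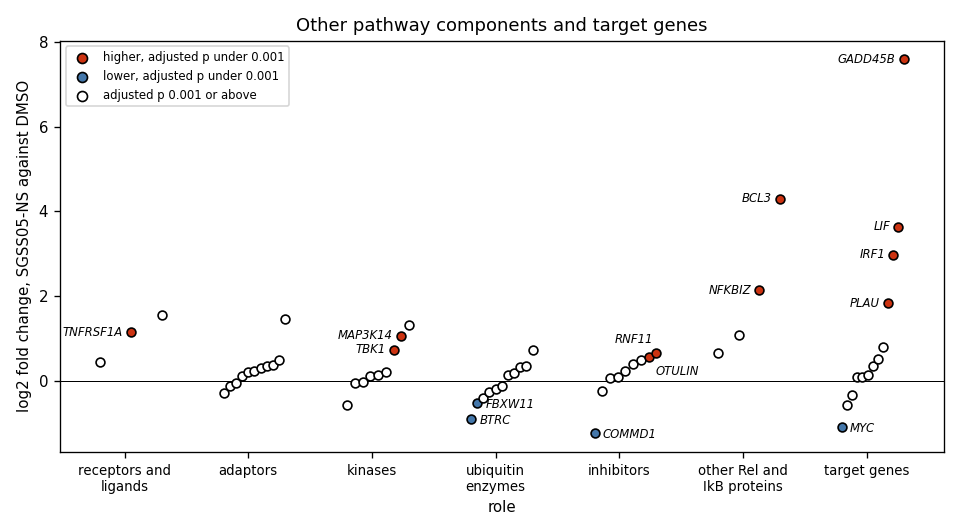
Log2 fold change (y axis) of the other pathway components tested, by role, and of the target genes tested (last column). Red points were called higher, blue points lower, and white points were not called. GADD45B, BCL3 and LIF lie highest, and the only called genes below 0 are BTRC, FBXW11, COMMD1 and MYC.

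A list of 34 genes widely described as NF-kB targets split by detection. The files held 32 of them under their identifiers. Of these, 12 had 0 fragments in all 4 libraries, among them the cytokine IL6, the chemokines CXCL1, CXCL2 and CCL2, the adhesion molecule VCAM1 and the cyclooxygenase PTGS2. Another 7 were too rare to test, with at most 5 fragments in any library, including CXCL8 with 0 and 0 against 1 and 3. A change of these genes was not detectable at this depth.

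Of the 13 target genes tested, 4 were called higher and 1 lower, with a median log2 fold change of 0.36. Over all genes tested 6.37% were called higher and 8.14% lower, and the share of targets called lower was close to the latter. GADD45B and LIF passed the filter only through the treated libraries. With at least 10 counts in every library 11 targets were tested, 2 were higher and 1 was lower. Over all genes under that stricter filter the shares were 6.21% and 8.44%. IRF1, a transcription factor of the interferon response, rose from 2.55 and 2.23 CPM to 18.7 and 18.7 CPM (log2 fold change 2.96, adjusted p = 1.5e-07, edgeR). LIF, a cytokine of the IL6 family, rose from 0.279 and 0.3 CPM to 4.42 and 2.93 CPM (log2 fold change 3.64, adjusted p = 1.2e-05, edgeR). PLAU, the urokinase gene, rose from 0.598 and 0.514 CPM to 2.07 and 1.91 CPM (log2 fold change 1.83, adjusted p = 5.6e-04, edgeR), a call that was lost with DESeq2, in counts without regard to strand and without DMSO replicate 2 (1.71) or either SGSS05-NS library (1.76 and 1.89). GADD45B, an NF-kB and stress target, was counted 1 and 2 times under DMSO and 204 and 391 times under SGSS05-NS. MYC fell from 169 and 174 CPM to 93.1 and 67.6 CPM (log2 fold change -1.09, adjusted p = 4.6e-05, edgeR).

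Strand-specific counts let fragments from the opposite strand be seen beside each member. The share of fragments on the opposite strand was at most 3.07% in every library for NFKB1, RELA, NFKBIA, NFKBIB, NFKBIE and BIRC2, and TNFAIP3 had none. For NFKB2 it was 5.23% and 3.03% with DMSO and 8.05% and 12.9% with SGSS05-NS. Annotated genes on the opposite strand touch the exons of RELA, NFKBIB, TNFAIP3 and BIRC3, and none overlaps NFKB2. Opposite-strand fragments at NFKB2 numbered 9 and 4 under DMSO and 24 and 34 under SGSS05-NS, and the groups did not overlap.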

How the data were processed

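RNA-seq of 4 SY5Y libraries was analysed, 2 per treatment as given by the titles in the labels. Per the labels and the study's methods, reads were trimmed (Trimmomatic 0.30) and mapped to hg19 by STAR 2.4.2a, and the authors deposited its gene counts, unnormalized and 1 file per library. Each file holds 57820 genes and 4 summary rows, which entered neither library sizes nor tests. The column of reverse-stranded counts was used. Symbols, positions and merged exon lengths were matched by identifier to GENCODE 44 on GRCh37 (55538 genes), a later release than the one counted. Listed genes without a row of that identifier were not analysed here.

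Counts were filtered with filterByExpr, scaled by TMM and tested with edgeR 4.0.16 (quasi-likelihood, treatment only, R 4.3.3), with Benjamini-Hochberg adjustment over 16468 genes and a threshold of 0.001. The standard error is the log2 fold change divided by the square root of F. Alternatives were the likelihood ratio test, DESeq2 1.42.0, limma voom (3.58.1), other scalings, filters and thresholds, counts of both strands, the replicate number as a block, and single libraries left out. Named genes are the members and, per list, the 5 called genes with the smallest p-values in each direction. REL, BCL3, OTULIN, CHUK, IKBKB, TRAF2, TRAF3 and the genes named as absent or rare were chosen with their values in view. The members and lists were chosen with earlier results of these data known. Replicates differed beyond sampling noise, with a chi-square of 8.76 (DMSO) and 11.8 (SGSS05-NS) per degree of freedom. Intervals of count ratios (95%, exact binomial) and the limit of 3 counts for a count of 0 cover counting error only, since PCR reads are not independent molecules.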

Additional observations from a re-analysis of the deposited data

Results flagged for a closer look

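Counts on the opposite strand, which the comparisons do not use, were above the DMSO level beyond counting error at 3 members. At NFKB2 the ratio of the scaled opposite-strand counts was 4.73 (95% counting interval from 2.56 to 9.41), with 9 and 4 fragments under DMSO against 24 and 34 under SGSS05-NS. At RELB it was 3.03 (from 1.23 to 8.48), with 4 and 3 against 8 and 12 fragments, while the share of opposite-strand fragments at RELB was 16.0% and 8.33% with DMSO and 3.98% and 6.32% with SGSS05-NS. At RELA it was 1.75 (from 1.18 to 2.62), with 20 and 23 against 27 and 44 fragments. The other members with a ratio, NFKB1 (3.53), NFKBIA (1.73), NFKBIE (1.27) and NFKBIB (0.662), had counting intervals that include an equal level. Over all genes the opposite-strand column held between 4.64% and 5.05% of the fragments counted on either strand. The intervals cover counting error only.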

How the results depend on the processing

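The number of members called higher was 5, between 4 and 7 under every alternative and between 5 and 6 with single libraries left out, and no member was called lower under any of them. No log2 fold change of a named gene changed sign. With 2 libraries per treatment the spread of a gene is largely taken from other genes, and a treatment with 1 library left is assumed to vary like the other. The replicate numbers do not pair the libraries: the deviations of same-numbered libraries correlated at 0.05 over 16468 genes. With the replicate block, 7 members were called higher, NFKB2 (adjusted p = 4.3e-05) and RELA (adjusted p = 7.9e-04) included, REL was called (adjusted p = 2.5e-04, all edgeR), and 11 pathway components were higher and 4 lower. Over all genes, 1759 were then higher and 2007 lower, against 1049 and 1341, and the likelihood ratio test called 2022 and 2267 and no filter 2034 and 2570 of 30755. Scaling by library size only called 929 higher and 997 lower of 16468.

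Of the pathway components, 10 were called (7 higher, 3 lower). The likelihood ratio test called 16 (12 higher), scaling by library size only 5 (3 higher), no filter on low counts 17 (12 higher, 5 lower), an adjusted p under 0.01 gave 20 (15 higher, 5 lower) and under 0.05 gave 28 (20 higher, 8 lower). With single libraries left out, between 4 and 8 were higher, the lowest without DMSO replicate 2, and between 7 and 10 were called in all. Of the targets, 5 were called (4 higher, 1 lower). The likelihood ratio test called 8 (2 lower), no filter 8 (3 lower), at least 10 counts in every library 3 (2 higher), an adjusted p under 0.01 gave 8 (2 lower) and under 0.05 gave 9 (3 lower). The shares of all genes under 0.01 and under 0.05 are not given here, so the counts at these thresholds set neither list apart. Between 1 and 2 were lower with single libraries left out, 2 of them without SGSS05-NS replicate 1. Per length of the longest transcript 6 of 10 members kept their place in the DMSO order and 5 of 10 in the SGSS05-NS order. The causes were not tested.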
